A study of Mus musculus with 9 samples.

Results

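The miRNAs of quadriceps muscle were compared directly between mice without Mbnl1 and mice without Mbnl2, with no use of the 3 wild-type libraries of the same study. Small RNA of 6 of the 9 mice entered the comparison, 3 labelled Mbnl1KO and 3 labelled Mbnl2KO, with 1 library per mouse and an age of 90 days in the labels for both groups. Mbnl1KO mice were homozygous for a deletion of exon 3 of Mbnl1 on C57BL/6J, with both copies of Mbnl2 intact. Mbnl2KO mice carried intact Mbnl1, and the labels name their strain as B6.C-Tg(CMV-cre)1Cgn/J, a line that carries Cre recombinase under the CMV promoter and thus in most tissues. Their Mbnl2 alleles differed between mice in the labels: replicate 1 had exon 2 deleted on both copies, replicate 2 had exon 2 deleted on one copy and exon 3 on the other, and replicate 3 had exon 2 and exon 4. The text of the study names the homozygous deletion of exon 2 alone for its Mbnl2 knockout, and whether the alleles of these mice differed was not tested. The missing gene and the labelled strain are aligned in these 6 mice and cannot be told apart. Mbnl1 and Mbnl2 mRNA are not measured by small RNA libraries, so the deleted genes gave no check of the genotype labels.

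The comparison took in every row whose mean normalized count over the 6 libraries exceeded 10, which gave 311 of the 1966 mature miRNAs in the count table. A row could pass this limit through the counts of a single knockout, and its fold change then rests on few reads in the other. A further 540 miRNAs had a count in these libraries but a lower mean, and 1115 were listed at 0 in all 6. The members just above the limit were miR-669a-5p, miR-667-3p and miR-191-3p, with means of 10.02, 10.03 and 10.3, and the miRNAs just below it were miR-381-5p, miR-877-5p and miR-598-3p, with means of 9.92, 9.90 and 9.82. A normalized count is the raw count divided by the library's effective size, which is its total multiplied by its TMM factor (trimmed mean of M-values), and multiplied by the mean effective size of the 6 libraries. Total counts were between 5269526 and 6277018 in Mbnl1KO and between 5479314 and 5954905 in Mbnl2KO, and miR-1a-3p alone made up 61.4% to 68.6% of the Mbnl1KO totals and 67.2% to 73.7% of the Mbnl2KO totals. Muscle was the labelled tissue, and miR-1a-3p, miR-133a-3p and miR-206-3p were all abundant. The heart miRNA miR-208a-3p and the muscle miRNA miR-486a-5p were listed at 0 in every library, as were both arms of the widely expressed miR-24 and of the endothelial miR-126a, so a 0 in this table was not read as absence.

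MBNL1 and MBNL2 are paralogous RNA-binding proteins that recognise UGC-containing motifs and control the splicing, polyadenylation and stability of transcripts as muscle matures. In myotonic dystrophy both are trapped on expanded CUG repeats. MBNL1 is the more abundant paralog in adult skeletal muscle and MBNL2 is best known for its part in the brain. A miRNA is cut from a hairpin in a longer primary transcript by Drosha and then by Dicer, and one of its arms, named 5p or 3p, is kept by Argonaute, where the seed (bases 2 to 8 of the mature miRNA) selects the target mRNAs. MBNL proteins can bear on this pathway at the primary transcript, through its splicing and stability, or at the precursor loop.

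The sequences below, from RefSeq on GRCm38.p6 and written 5′ to 3′ with the seed in capitals, are the miRNAs with which the main results are told. The first 6 lie on chromosome 12 in the imprinted Dlk1-Dio3 region, where the largest differences were found. The other 9 are members of the muscle, miR-23/27, leukocyte and Pank-hosted groups described further on.
miR-381-3p: uAUACAAGggcaagcucucugu
miR-370-3p: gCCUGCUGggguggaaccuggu
miR-543-3p: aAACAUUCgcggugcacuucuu
miR-495-3p: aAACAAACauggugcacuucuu
miR-369-3p: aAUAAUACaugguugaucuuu
miR-541-5p: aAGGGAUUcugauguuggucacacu
miR-206-3p: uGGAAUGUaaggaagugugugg
miR-27b-3p: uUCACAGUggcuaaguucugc
miR-27a-3p: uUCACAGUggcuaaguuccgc
miR-23a-3p: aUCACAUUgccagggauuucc
miR-107-3p: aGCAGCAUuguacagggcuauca
miR-155-5p: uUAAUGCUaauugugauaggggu
miR-146b-5p: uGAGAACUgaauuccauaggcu
miR-146a-5p: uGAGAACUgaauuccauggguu
miR-223-3p: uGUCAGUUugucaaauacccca
Within this set miR-27a-3p and miR-27b-3p share a seed, and so do miR-146a-5p and miR-146b-5p, while the 6 miRNAs of chromosome 12 all have different seeds.

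Of the 311 miRNAs tested, 85 (27.3%) differed between the knockouts by edgeR's quasi-likelihood test (adjusted p below 0.05). In Mbnl1KO 52 (16.7%) were higher and 33 (10.6%) were lower than in Mbnl2KO. The higher miRNAs differed by more: 33 of the 52 had a log2 fold change above 1, with a median of 1.20, against 7 of the 33 lower miRNAs below -1, with a median of -0.71. They were also less abundant, with a median of their mean normalized counts of 176 against 323 for the lower miRNAs and 123 for all tested. In 133 miRNAs (42.8%) the 3 libraries of one knockout all lay on one side of the 3 of the other, with Mbnl1KO above in 71 (22.8%) and below in 62 (19.9%). The first principal component of the tested miRNAs held 58.8% of the variance and separated the knockouts. Without the wild-type libraries these differences do not say in which of the knockouts a level had moved.

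The split between higher and lower depended on how libraries were scaled. Over all tested miRNAs the log2 fold change had a median of 0.09 with TMM and 0.36 when library totals alone were used, and those totals are mostly miR-1a-3p. With totals alone 77 miRNAs passed, 72 higher and 5 lower, and with DESeq2's size factors in edgeR 92 passed, 46 higher and 46 lower. All 52 higher miRNAs were also called with totals alone. Of the 33 lower miRNAs only 5 were, namely miR-378a-3p, miR-142a-5p, miR-223-3p, miR-146b-5p and miR-183-5p, although 32 kept their sign and the other, miR-3061-3p, was not tested under that scaling. DESeq2's Wald test called 41 of the 52 higher and 28 of the 33 lower miRNAs. The calls it did not make were miR-541-3p, miR-380-5p, miR-485-3p, miR-433-3p and miR-382-3p of the Dlk1-Dio3 region, miR-301a-3p, miR-450b-5p, miR-34c-5p, miR-677-5p, miR-674-5p and miR-615-3p among the other higher miRNAs, and miR-221-5p, miR-125b-1-3p, miR-3058-5p, miR-653-5p and miR-3061-3p among the lower. Counts of this kind are shares of a library, so a larger share of miR-1a-3p and a lower level of the other miRNAs cannot be told apart.

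**Figure D1:**
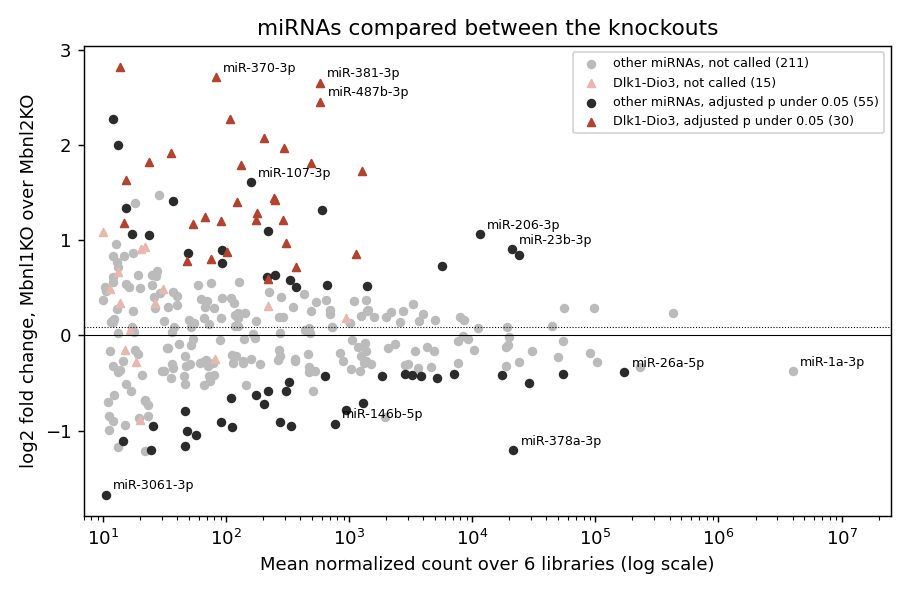
Log2 fold change of Mbnl1KO over Mbnl2KO (vertical axis) against the mean normalized count over the 6 libraries (horizontal log axis) for the 311 miRNAs tested. Triangles are the 45 miRNAs of the Dlk1-Dio3 region, dark red and black points have an adjusted p under 0.05, and the dotted line is the median of 0.09: most of the points above 1 are triangles, and miR-378a-3p stands lowest among the miRNAs with more than 1000 counts.

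The miRNAs of the imprinted Dlk1-Dio3 region made up most of the higher calls. This region of chromosome 12 carries a very large cluster of mammalian miRNAs, expressed from the maternal chromosome within long noncoding transcripts (Meg3, Rian and Mirg), and its miRNAs are known for high levels in fetal and newborn muscle. Its 54 precursors in the RefSeq table span chr12:109563692-109747960 on GRCm38.p6. Of 109 mature miRNAs of the region that the count file lists, 45 were tested, and 30 of them were higher in Mbnl1KO, none was lower and 15 did not pass, with a median log2 fold change of 1.17. Among the 266 miRNAs tested outside the region 22 (8.27%) were higher and the median was -0.05. In 34 of the 45 all Mbnl1KO libraries lay above all Mbnl2KO libraries, and in none below, against 22.8% above and 19.9% below among all tested. The list was drawn up with earlier results of these data known, so its counts are a description.

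The difference was seen in both parts of the region. In the proximal part, with the Meg3, anti-Rtl1 and Rian miRNAs, 7 of 9 tested miRNAs were higher, with a median of 1.40. In the distal cluster from miR-379 to miR-410, part of which lies within the annotated Mirg transcript, 23 of 36 were higher, with a median of 1.13. Among all tested miRNAs 16.7% were higher. The summed normalized counts of the distal cluster were 9380, 10232 and 11084 in the Mbnl1KO libraries and 3765, 4483 and 3343 in the Mbnl2KO libraries. Those of the proximal part were 2388, 2529 and 2959 against 1493, 1854 and 1176. Both sums separate the knockouts without overlap, and the distal sum differs by more.

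Within the distal cluster miR-487b-3p had the smallest adjusted p of all miRNAs tested. Its normalized counts were 996, 852 and 1103 in Mbnl1KO and 184, 200 and 152.5 in Mbnl2KO, a log2 fold change of 2.46 ± 0.18 (SE, adjusted p = 1.3e-11). All Mbnl1KO libraries were more than 4 times any Mbnl2KO library. Counts of miR-381-3p were 726, 1087 and 1163 against 144, 244 and 80.0, a log2 fold change of 2.66 ± 0.43 (adjusted p = 0.0082), with a wider spread within both groups. Counts of miR-543-3p were 327, 297 and 351 against 64.3, 94.4 and 71.2 (log2 fold change 2.08 ± 0.21, adjusted p = 5.7e-09). The group of miR-495-3p was tight, at 719, 796 and 749 against 193, 237 and 215 (1.81 ± 0.17, adjusted p = 2.8e-09). The most abundant member of the region, miR-541-5p, was at 1845, 1963 and 1982 in Mbnl1KO and at 567, 690 and 489 in Mbnl2KO (1.73 ± 0.16, adjusted p = 2.4e-09). Both arms of miR-369 were higher, by 2.28 ± 0.25 for the 5p arm and 1.97 ± 0.21 for the 3p arm. miR-412-5p, miR-154-3p and miR-300-3p were higher by 1.92, 1.82 and 1.79 on the log2 scale, and the second most abundant member, miR-411-5p, by 0.86 ± 0.18.

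In the proximal part the largest differences were those of miR-665-3p and miR-370-3p. Counts of miR-370-3p, which lies in an exon of Rian, were 111, 136 and 180 in Mbnl1KO and 20.7, 31.5 and 11.2 in Mbnl2KO (log2 fold change 2.71 ± 0.30, adjusted p = 1.5e-07). Those of miR-665-3p were 24.5, 18.6 and 29.1 against 2.30, 4.92 and 2.50 (2.82 ± 0.51, adjusted p = 7.4e-05), so that the low group rests on a few reads per library. Its mean exceeded the limit of 10 through Mbnl1KO alone. Both arms of miR-127, which is processed from the antisense transcript of Rtl1 and can cleave Rtl1 mRNA, were higher, by 1.45 ± 0.23 for the 5p arm and 0.97 ± 0.21 for the 3p arm. The 15 members of the region that did not pass included abundant ones. miR-434-3p was at 1011, 879 and 1107 against 946, 994 and 696 (0.18 ± 0.17, adjusted p = 0.40), and miR-494-3p at 212, 229 and 285 against 206, 196 and 185 (0.31 ± 0.19, adjusted p = 0.24). miR-323-3p, at 12.7, 9.83 and 19.4 against 29.9, 35.4 and 12.5, had the lowest fitted value of the region (-0.89 ± 0.40, adjusted p = 0.10). Its groups overlap.

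**Figure D2:**
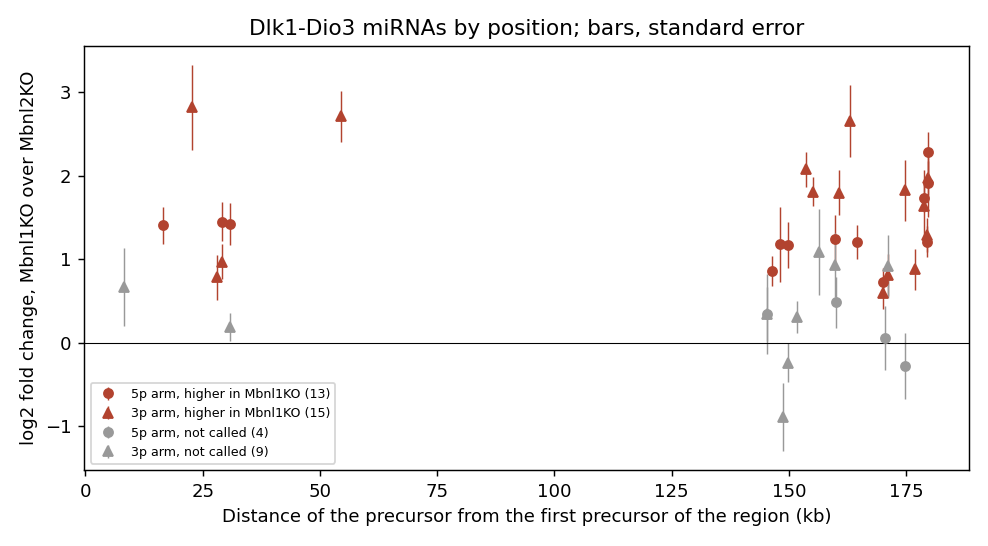
Log2 fold change of Mbnl1KO over Mbnl2KO with its standard error (vertical axis) for the 41 tested miRNAs of the Dlk1-Dio3 region with a precursor in RefSeq, against the distance of that precursor from the first precursor of the region in kb. Circles are 5p arms, triangles 3p arms and red points passed at an adjusted p under 0.05: red points stand above 0 at both ends of the region, and arms of one hairpin can lie apart, as for miR-434 at 30.8 kb.

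Members of the miR-23/27/24 clusters were higher in Mbnl1KO. One of the 2 clusters holds miR-23a and miR-27a and the other miR-23b and miR-27b, each followed by a copy of miR-24, and their miRNAs are known as regulators of muscle differentiation, atrophy signalling and vessel growth. Of 8 tested members 5 were higher, against 16.7% among all tested, none was lower and 3 did not pass, and all 8 had a fitted log2 fold change above 0. The summed counts of the list were 66583, 67115 and 62436 in Mbnl1KO and 39346, 35560 and 33233 in Mbnl2KO. As a share of all counts other than miR-1a-3p this was 3.26% to 3.72% against 1.85% to 1.94%. Sum and share hold no miR-24, whose arms are listed at 0 in all 6 libraries.

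miR-23b-3p was at 27796, 26301 and 27782 in Mbnl1KO and at 15281, 14344 and 14095 in Mbnl2KO (log2 fold change 0.91 ± 0.14, adjusted p = 1.1e-05). miR-23a-3p was at 30612, 33227 and 27621 against 19090, 16910 and 14782 (0.85 ± 0.14, adjusted p = 4.1e-05). The spread within either group was small beside the difference. miR-27b-3p was at 7644, 7082 and 6557 against 4652, 4021 and 4117 (0.73 ± 0.14), and its 5p arm was also higher (adjusted p = 7.4e-05). miR-27a-3p was at 20.6, 22.9 and 20.3 against 8.04, 3.93 and 3.75 (2.00 ± 0.47, adjusted p = 0.0019). The mature sequences of miR-27a and miR-27b printed above are nearly the same, and miR-27b-3p held 99.8% of the counts of their seed, so the few reads counted as miR-27a-3p could include miscounted ones. The other arm of its hairpin, miR-27a-5p, had 150, 126 and 110 against 114, 115 and 73.7 (0.35 ± 0.23, adjusted p = 0.26).

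Among the miRNAs of striated muscle, which promote and maintain muscle identity, 2 of 7 tested were higher and 5 did not pass, against 16.7% higher and 10.6% lower among all tested, and both of the higher ones come from the same transcript. miR-206-3p, made in skeletal muscle from Lincmd1, a long noncoding RNA of muscle, and known to rise in newborn and regenerating fibres, was at 16161, 17118 and 13592 in Mbnl1KO and at 9635, 5975 and 6763 in Mbnl2KO (1.07 ± 0.17, adjusted p = 2.8e-05). miR-133b-3p, which shares that transcript, was at 135, 121 and 102 against 71.2, 66.9 and 53.7 (0.90 ± 0.23, adjusted p = 0.0047), and its sequence is nearly that of the far more abundant miR-133a-3p. miR-133a-3p itself was at 477267, 397798 and 516504 against 419459, 394543 and 369108 (0.23 ± 0.15, adjusted p = 0.25).

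miR-1a-3p, which has the same seed as miR-206-3p, was at 2862769, 3948403 and 3626758 in Mbnl1KO and at 4757711, 3758452 and 5049425 in Mbnl2KO. The fitted log2 fold change was -0.38 ± 0.17 (adjusted p = 0.10) and the groups overlap, with Mbnl1KO replicate 2 above Mbnl2KO replicate 2. miR-499-5p, hosted by a slow myosin gene, was at 11.1, 105 and 9.71 against 28.7, 3.93 and 11.2 (1.48 ± 1.35, adjusted p = 0.45). Its fitted value rests on Mbnl1KO replicate 2 and was -0.46 without that library. The same library held all 8 raw counts of miR-208b-3p, another miRNA of a slow myosin gene, and all 9 of miR-499-3p. Of 4 tested miRNAs known to rise in damaged muscle 2 were higher, against the same 16.7%: miR-34c-5p at 31.7, 41.5 and 23.8 against 14.9, 22.6 and 7.50 (1.06 ± 0.38, adjusted p = 0.038) and miR-34a-5p at 255, 300 and 221.6 against 193, 150 and 165 (0.61 ± 0.20, adjusted p = 0.022). Both belong to the p53-responsive miR-34 family, and both calls were lost when single libraries were left out, in 5 and 4 of the 6 fits. miR-21a-5p, at 58369, 68857 and 57697 against 54730, 44914 and 51242, did not pass (0.29 ± 0.14, adjusted p = 0.13).

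**Figure D3:**
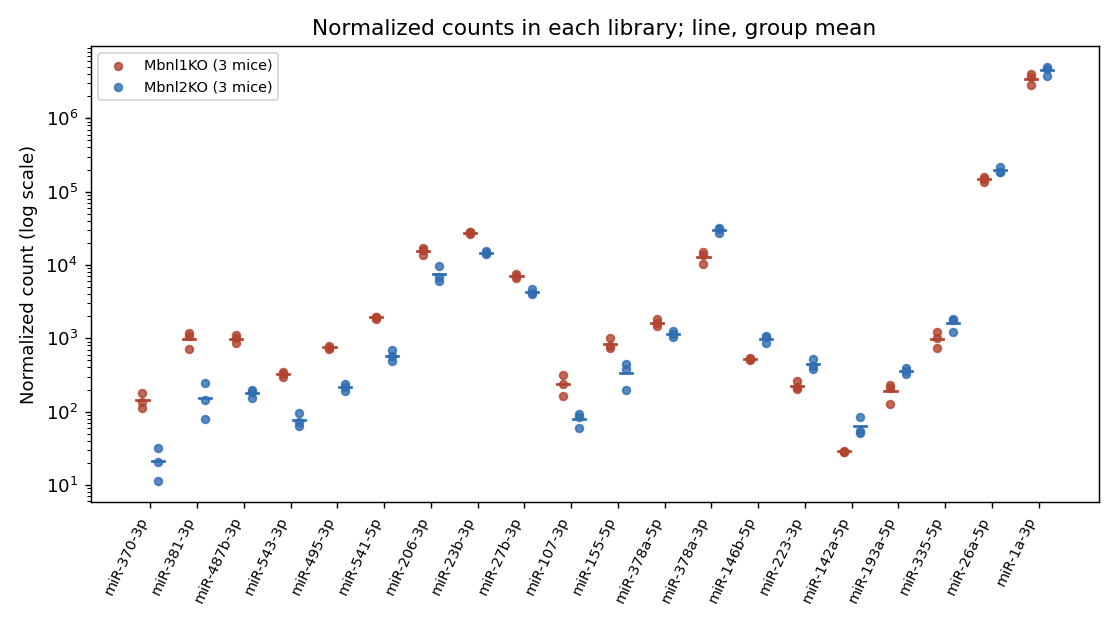
Normalized counts on a log axis of 20 miRNAs in the 3 Mbnl1KO libraries (red) and the 3 Mbnl2KO libraries (blue), each point 1 mouse, with a line at the group mean. The groups do not overlap for the miRNAs shown except miR-335-5p and miR-1a-3p, and the distance between groups is largest for miR-370-3p, miR-381-3p and miR-487b-3p.

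Other higher miRNAs lay in several host genes. miR-107-3p, in an intron of the pantothenate kinase gene Pank1, was at 312, 236 and 165 in Mbnl1KO and at 91.8, 59.0 and 83.7 in Mbnl2KO (1.61 ± 0.24, adjusted p = 1.7e-05). Its near-identical relatives in Pank2 and Pank3, counted together as miR-103-3p, were far more abundant, and the counting could move reads between them. Of 10 tested miRNAs of the X-linked cluster that begins with miR-322, whose products promote cell cycle exit in differentiating myoblasts, 2 were higher, a share near the 16.7% among all tested: miR-322-5p by 0.53 ± 0.17 and miR-450b-5p by 1.07 ± 0.40 (adjusted p = 0.048). The call of miR-450b-5p was lost with the Wald test (adjusted p = 0.28) and the replicate block (adjusted p = 0.063), and was kept in 1 of the 6 fits without a single library. miR-181c-5p was higher by 0.64 ± 0.21, while miR-181a-2-3p was lower, at 732, 506 and 819 against 1114, 1269 and 1171 (-0.79 ± 0.17, adjusted p = 0.00086). The remaining miRNAs of that family did not pass. Outside every list, miR-7689-3p, miR-1970b-5p, miR-301a-3p, miR-677-5p, miR-674-5p and miR-1198-5p were higher, by 2.28, 1.41, 1.34, 0.86, 0.76 and 0.59. With the Wald test miR-301a-3p, miR-677-5p and miR-674-5p did not pass (adjusted p = 0.16, 0.17 and 0.070). The Hox cluster list had 1 of 6 higher, the same share as among all tested, miR-615-3p from the HoxC cluster (0.51 ± 0.18). None of the 7 tested miRNAs of the miR-29 family, which represses collagens, passed, with fitted values between 0.09 and 0.46.

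Leukocyte and blood miRNAs went in both directions. Of 10 tested 4 were lower, 1 was higher and 5 did not pass, against 10.6% lower and 16.7% higher among all tested. miR-146b-5p, a feedback inhibitor of NF-kappaB signalling, was at 518, 509 and 542 in Mbnl1KO and at 1026, 1079 and 875 in Mbnl2KO (-0.93 ± 0.16, adjusted p = 4.8e-05). Its seed relative miR-146a-5p was at 563, 523 and 523 against 667, 758 and 740 (-0.43 ± 0.16, adjusted p = 0.046), a call that was kept in only 1 of the 6 fits without a single library and lost with totals alone (adjusted p = 0.69). The myeloid miRNA miR-223-3p was at 263, 203 and 215 against 424, 519 and 377 (-0.96 ± 0.19, adjusted p = 0.00025). miR-142a-5p, made in blood cells of all lineages, was at 29.3, 28.4 and 28.3 against 51.7, 85.6 and 53.7 (-1.16 ± 0.28, adjusted p = 0.0023). In these 4 all Mbnl1KO libraries were below all Mbnl2KO libraries.

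miR-155-5p, known for its induction in activated lymphocytes and macrophages, went the other way, at 797, 1011 and 736 in Mbnl1KO and at 449, 197 and 379 in Mbnl2KO (1.32 ± 0.26, adjusted p = 0.0019). The lymphocyte miRNA miR-150-5p was at 896, 938 and 871 against 1437, 1121 and 897 (-0.35 ± 0.17, adjusted p = 0.12), and the red cell miRNA miR-451a at 478, 870 and 461 against 557, 395 and 467 (0.35 ± 0.23, adjusted p = 0.29). Of 18 miRNAs of the list 14 had a count, and miR-142a-3p and miR-144-3p were listed at 0. The summed counts of the list were between 3832 and 4594 in Mbnl1KO and between 4196 and 5061 in Mbnl2KO, and these ranges overlap. A different number of cells of a type and a different amount of RNA per cell cannot be told apart in these whole muscle libraries.

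Of the other cell marker lists, the fibroblast list alone had members that passed. Of 6 fibroblast miRNAs 3 were lower, against 10.6% among all tested, miR-199a-3p (-0.42 ± 0.15), miR-199b-3p (-0.43 ± 0.15) and miR-199b-5p (-0.62 ± 0.21), and the summed counts of that list did not overlap, at 7773 to 9255 against 9846 to 11773. As a share of all counts other than miR-1a-3p the ranges of this list overlapped, at 0.406% to 0.513% against 0.474% to 0.642%, and with totals alone none of the 3 passed (adjusted p = 0.34 to 0.65). The 3p arms of miR-199a and miR-199b share a seed, with 67.1% of its counts under miR-199a-3p, and are so alike that the counting could split their reads. Their calls may thus come from the same reads and were not taken as separate. None of 4 vessel wall miRNAs passed, and their sums overlapped, at 28980 to 45172 against 39840 to 43568. The epithelial list was represented by miR-194-5p and miR-192-5p, neither of which passed, with sums of 364 to 476 against 486 to 506 and overlapping shares of 0.0190% to 0.0264% against 0.0244% to 0.0279%. The count table lists miR-203-3p, miR-141-3p and miR-429-3p at 0, which does not show that they were absent, and miR-200a, miR-200b and miR-200c had at most 13 raw counts in a library. The nerve list was nearly all miR-128-3p, which did not pass (0.33 ± 0.15, adjusted p = 0.10). Its sums, 3541 to 3959 against 2429 to 3302, did not overlap. Nor did its shares, 0.1902% to 0.2196% against 0.1325% to 0.1728%. In that list miR-9-5p and miR-338-3p were listed at 0, as was the liver miRNA miR-122-5p. The part of these cell markers in the results above was not tested.

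miR-378a-3p was the lower miRNA with the smallest adjusted p. It is encoded in an intron of Ppargc1b, the gene of a coactivator of mitochondrial biogenesis, and is known for a part in energy metabolism and autophagy of muscle. It was at 13741, 10209 and 15052 in Mbnl1KO and at 31945, 30863 and 26954 in Mbnl2KO (-1.20 ± 0.15, adjusted p = 4.4e-07), and it passed in all 6 fits with a library left out. The other arm of the same hairpin, miR-378a-5p, was higher, at 1625, 1454 and 1844 against 1240, 1137 and 1057 (0.52 ± 0.15, adjusted p = 0.013). The arms thus differed in opposite directions, in both cases without overlap between the groups.

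Several abundant families had single lower members. Over the let-7, miR-30, miR-26, miR-99/100 with miR-125, and miR-17-92 lists 8 of 50 tested miRNAs (16%) were lower, near the 10.6% among all tested, so these counts single out none of the families. The log2 fold changes lay between -0.39 and -0.49 except for a passenger arm of miR-125b. In the let-7 family, which restrains proliferation and accumulates in mature tissue, 2 of 16 were lower, let-7c-5p at 27499, 21561 and 22464 against 34618, 31441 and 34732 (-0.49 ± 0.14, adjusted p = 0.011) and let-7b-5p (-0.40 ± 0.14). let-7f-5p, its most abundant member, was at 93100, 102493 and 82308 against 123157, 92239 and 121227 and did not pass (-0.28 ± 0.15, adjusted p = 0.17). In the miR-30 family 2 of 9 were lower, miR-30c-5p (-0.41 ± 0.14) and miR-30a-3p (-0.41 ± 0.15). miR-26a-5p, hosted by the phosphatase genes Ctdspl and Ctdsp2, was at 150529, 133925 and 160400 against 217824, 182561 and 182122 (-0.39 ± 0.14, adjusted p = 0.045). Of 9 tested miRNAs of the miR-99/100 and miR-125 families 2 were lower, miR-125b-5p (-0.41 ± 0.14) and the passenger arm miR-125b-1-3p (-0.95 ± 0.35). Of 12 of the miR-17-92 clusters and their paralogs, known for driving proliferation, 1 was lower, miR-92a-3p (-0.45 ± 0.14). None of these 8 passed with library totals alone.

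Lower miRNAs were also found in smaller groups and outside the lists. In the X-linked cluster within introns of Clcn5, 2 of 5 were lower, against 10.6% among all tested, miR-501-3p at 157, 120 and 180 in Mbnl1KO against 281, 249 and 225 in Mbnl2KO (-0.72 ± 0.20, adjusted p = 0.0088) and miR-532-5p at 267, 269 and 196 against 395, 348 and 351 (-0.58 ± 0.19, adjusted p = 0.021). All 5 were fitted below 0. Both arms of miR-335, in an intron of the imprinted gene Mest, were lower, and their groups overlapped: miR-335-5p was at 730, 1211 and 1004 against 1815, 1780 and 1207 (-0.71 ± 0.19, adjusted p = 0.012). miR-193a-5p was at 208, 129 and 231 against 355, 329 and 391 (-0.91 ± 0.20, adjusted p = 0.0011). miR-653-5p, in an intron of Calcr, the calcitonin receptor gene that quiescent muscle stem cells express, was at 9.50, 15.3 and 19.4 against 41.3, 37.4 and 22.5 (-1.21 ± 0.37, adjusted p = 0.016). miR-183-5p, best known from sensory cells, was at 38.8, 44.8 and 29.1 against 65.4, 115 and 48.7 (-1.04 ± 0.30, adjusted p = 0.012). The largest negative value was that of miR-3061-3p, at 2.37, 5.46 and 7.06 against 13.8, 11.8 and 22.5 (-1.67 ± 0.53, adjusted p = 0.021), which rests on few reads. Its mean exceeded the limit of 10 through Mbnl2KO alone. Among the others, miR-1943-5p, miR-3058-5p (-1.11), miR-221-5p (-0.80), miR-151-5p (-0.41) and both arms of miR-1843a (-0.58 for 5p and -0.96 for 3p) were lower, as were miR-664-3p (-0.49) and miR-676-5p (-0.65). miR-3058-5p, at 8.70, 9.83 and 8.83 against 21.8, 19.7 and 17.5, passed in none of the 6 fits with a library left out.

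**Figure D4:**
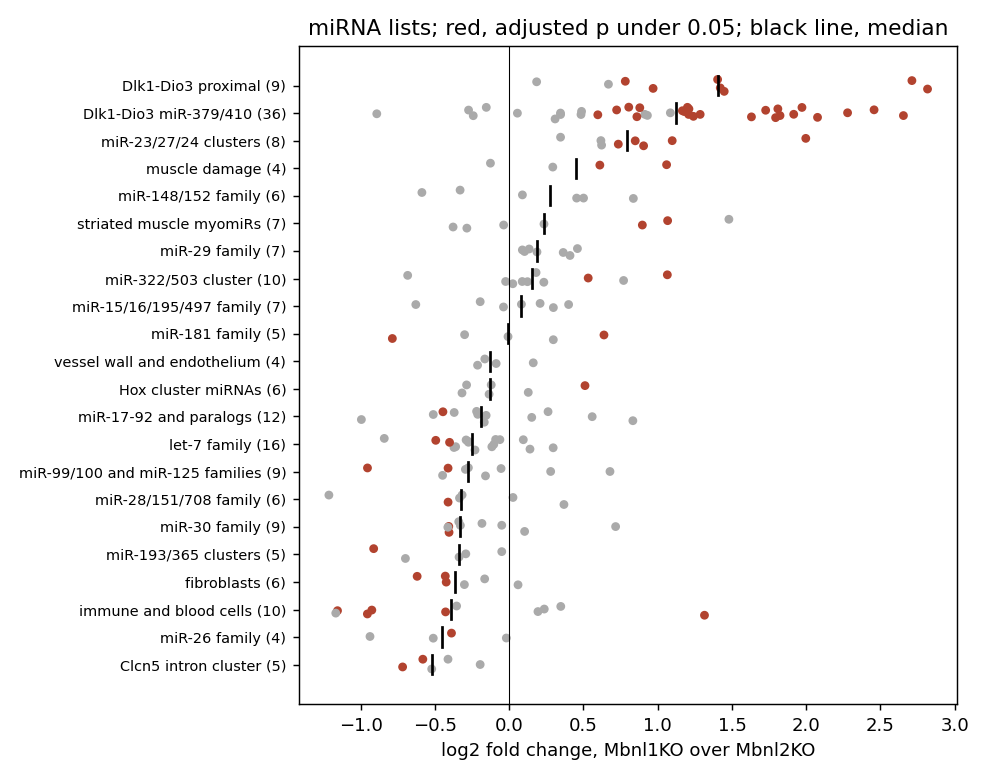
Log2 fold change of Mbnl1KO over Mbnl2KO (horizontal axis) of each tested miRNA in the lists with at least 4 tested miRNAs, 1 line per list with the number tested in parentheses and a black bar at the list's median. Red points passed at an adjusted p under 0.05: the Dlk1-Dio3 lists have medians of 1.40 and 1.13 and the miR-23/27/24 list of 0.79, while the Clcn5 intron cluster has the lowest median, -0.52.

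The ratio of the 5p to the 3p arm of a hairpin is free of the scaling between libraries, because both arms are counted in the same library. It was compared for the 75 hairpins with both arms tested, as the log2 of the ratio with a pseudocount of 0.5, by limma, which took the spread largely from all hairpins together. The ratio differed in 9 hairpins (12%), with 24 (32%) without overlap between the groups. It was higher in Mbnl1KO, thus shifted towards the 5p arm, for miR-378a, miR-329, miR-434, miR-140, miR-106b and miR-674, and lower for miR-154, miR-221 and miR-22.

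The shift with the smallest adjusted p was that of miR-378a. Its 5p arm stood to its 3p arm as 0.118, 0.142 and 0.122 in the Mbnl1KO libraries and as 0.0388, 0.0369 and 0.0393 in the Mbnl2KO libraries, a difference of 1.73 on the log2 scale (95% interval 1.45 to 2.02, from limma's moderated spread). The ratios within a group differed little beside the step between the groups. The miR-434 ratios were 0.297, 0.402 and 0.402 against 0.129, 0.196 and 0.130 (difference 1.29, 0.90 to 1.67), through its 5p arm, which was higher (1.42 ± 0.25), while its 3p arm did not pass. For miR-329 the ratios were 1.03, 1.29 and 0.710 against 0.358, 0.465 and 0.290 (1.43, 0.87 to 1.99), so that the arm with more reads was the 3p arm in Mbnl2KO and not the same in all Mbnl1KO libraries. In miR-154 the shift ran the other way, with ratios of 0.600, 0.579 and 0.290 against 1.82, 2.33 and 1.40 (-1.96, -2.79 to -1.13): the 3p arm had more reads in all Mbnl1KO libraries and the 5p arm in all Mbnl2KO libraries. Here the 3p arm was higher (1.82 ± 0.37) and the 5p arm, at 19.8, 17.5 and 13.2 against 17.2, 30.5 and 12.5, did not pass.

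The hairpins of miR-434 and miR-154, both from the Dlk1-Dio3 region and both with a shift, are printed to show where the arms lie (RefSeq, GRCm38.p6, plus strand). They are at chr12:109594506-109594599 and chr12:109738433-109738498, and the capitals mark the mature arms, 5p first.
miR-434: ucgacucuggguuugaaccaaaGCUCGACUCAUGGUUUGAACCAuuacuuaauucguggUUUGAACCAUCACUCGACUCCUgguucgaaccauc
miR-154: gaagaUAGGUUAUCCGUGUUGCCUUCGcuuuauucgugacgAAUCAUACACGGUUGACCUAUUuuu
Outside the region, miR-140, hosted by Wwp2 and known from cartilage, shifted by 0.99 (0.67 to 1.31), with ratios of 0.339, 0.411 and 0.394 against 0.186, 0.148 and 0.253, while neither arm passed alone. miR-674 shifted by 0.79 and miR-106b by 0.94 towards the 5p arm, miR-221 by -0.98 and miR-22 by -0.39 away from it. The groups of miR-22 overlapped. The first 6 by adjusted p (miR-378a, miR-434, miR-140, miR-329, miR-154 and miR-674) passed in all 6 fits with a library left out, and miR-221, miR-106b and miR-22 in 4, 2 and 2 of them.

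**Figure D5:**
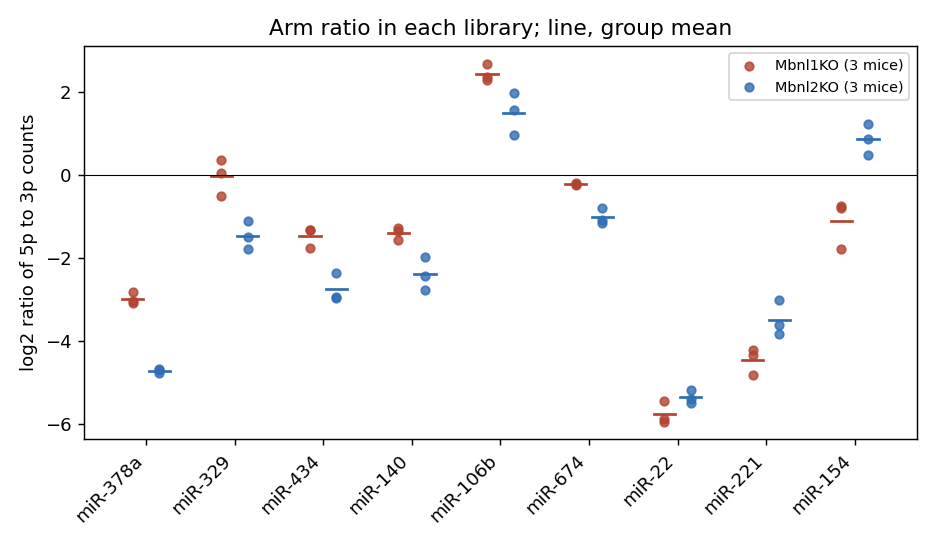
Log2 ratio of 5p to 3p counts (vertical axis) of the 9 hairpins whose ratio differed, in the 3 Mbnl1KO (red) and 3 Mbnl2KO (blue) libraries, with a line at the group mean; 0 means equal counts of both arms. The ratio of miR-378a was -2.97 on average in Mbnl1KO and -4.71 in Mbnl2KO, and that of miR-154 crossed 0, from a mean above it in Mbnl2KO (0.86) to values below it in all Mbnl1KO libraries.

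miRNAs with the same seed recognise the same sites, so counts were also summed over miRNAs with identical bases 2 to 8. Of the miRNAs tested 277 had a mature sequence in RefSeq, and 34 without one, among them miR-1a-3p, miR-378a-3p and miR-23b-3p, could not enter a sum. Of 50 seed families with 2 or more detected members 9 (18%) differed, and the groups did not overlap in 22 (44%). The miR-27 seed UCACAGU was at 7664, 7105 and 6577 in Mbnl1KO and at 4660, 4025 and 4121 in Mbnl2KO (0.74 ± 0.13, adjusted p = 0.00043). The miR-146 seed GAGAACU was at 1081, 1032 and 1065 against 1693, 1837 and 1615 (-0.70 ± 0.14, adjusted p = 0.0012), with miR-146b-5p giving 54.7% of it. Of the others, the seeds led by miR-1193-3p (1.73), miR-674-5p (0.76) and miR-34a-5p (0.62) were higher, and those led by miR-92a-3p (-0.39), miR-199a-3p (-0.43), miR-501-3p (-0.72) and miR-1943-5p (-0.97) were lower. None of these 3 higher seeds passed with DESeq2's Wald test (adjusted p = 0.15, 0.11 and 0.086 in the same order), and none of the 5 lower seeds, that of miR-146 included, passed with totals alone. The sum of miR-1193-3p and miR-370-5p, both of the Dlk1-Dio3 region, was only 19.0, 9.83 and 27.4 against 4.59, 3.93 and 8.75.

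The higher and lower miRNAs were finally described by sequence. The median GC content of the mature miRNA was 45.8% for the higher miRNAs with a sequence (47), 42.2% for the lower ones (28) and 47.6% for all tested (277). The tetranucleotide UGCU, a core of the motifs that MBNL proteins bind, was searched on the RNA strand of the precursors and was found in 17 of 39 hairpins of higher miRNAs (43.6%), 8 of 30 of lower ones (26.7%), 86 of 206 of all tested (41.7%) and 409 of all 991 hairpins in the RefSeq table (41.3%). A match of these letters is no binding site, and sequence outside the hairpins was not searched.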

How the data were processed

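The table deposited by the authors holds raw read counts per mature miRNA and library, without normalization. The methods of the study describe NEXTflex libraries, alignment of collapsed reads to miRBase precursors without mismatches and summing over mature miRNAs, and name DESeq2. Whether the table was counted in this way is not stated in it. Each entry is 1 mature miRNA name, which pools the precursors of that name. Reads of near-identical miRNAs under separate names, such as miR-199a-3p and miR-199b-3p, can be divided or exchanged between entries.

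Groups came from the labels, which give each library as a separate mouse. Counts of the 6 libraries were fitted in edgeR (TMM scaling, robust quasi-likelihood test) with Benjamini-Hochberg adjustment over all 311 miRNAs, log2 arm ratios with limma (trend, robust) over 75 hairpins, and seed sums with edgeR. The threshold was 0.05. The tools were matplotlib 3.10.9, NumPy 2.4.6 and pandas 2.3.3 under Python 3.11.15, and DESeq2 1.42.0, limma 3.58.1 and edgeR 4.0.16 under R 4.3.3. The tests were run on simulated counts with the same dispersion for every miRNA, which cannot show how they behave at the spread of these libraries. Host genes came from GENCODE by name. Of each total, miR-1a-3p left between 1439409 and 2278483 counts for all other miRNAs, which sets their precision.

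The named miRNAs were those past the threshold without overlap with the 12 largest and 12 smallest log2 fold changes, the members of each list past the threshold with up to 3 of its most abundant others, up to 10 hairpins and 10 seed families, and the 10 most abundant miRNAs. Others were added after their values were seen. The members, lists and comparison were chosen with earlier results of these data known. The alternatives were other scalings, filters, thresholds and pseudocounts, DESeq2's Wald test, a replicate block, and leaving out each library.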

Additional observations from a re-analysis of the deposited data

How the results depend on the processing

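The number of miRNAs that differed was between 77 and 92 under the 3 other scalings, 59 of 168 tested with a mean above 100, 80 of 851 with no filter, 79 of 309 with DESeq2's Wald test (41 higher, 38 lower), and 44 at a threshold of 0.01 (36 higher, 8 lower). Leaving out each library in turn gave 58 to 76. Of the 85 calls, 57 were shared without Mbnl1KO replicate 3 and 57 without Mbnl2KO replicate 3, and 33 of the 52 higher but 10 of the 33 lower miRNAs were called in all 6 such fits. miR-146a-5p, miR-30a-3p, miR-125b-1-3p, miR-34c-5p, miR-433-3p, miR-450b-5p, miR-615-3p and miR-677-5p were called in 1 of the 6, and miR-26a-5p, miR-34a-5p, miR-199b-3p, miR-380-5p, miR-664-3p and miR-1198-5p in 2. No pairing of the mice by replicate number was visible. The correlations of same-numbered libraries were between -0.126 and 0.0394, and those of differently numbered ones between -0.161 and 0.136. Values from so few libraries cannot show that mice were unpaired. With the replicate block 81 miRNAs (77 of them shared), 7 of the 9 arm ratios and 8 of the 9 seed families passed. The miRNA calls lost were miR-450b-5p, miR-26a-5p, miR-30a-3p, miR-30c-5p, miR-125b-5p, miR-146a-5p, miR-125b-1-3p and miR-3058-5p. The arm ratios and the seed family that were lost are not named here. Arm ratios passed in 8 hairpins with a pseudocount of 1, 6 of 25 with both arms above 100, 7 at 0.01 and 7 to 11 without single libraries. Against 9 seed families (4 higher, 5 lower), 15 passed with DESeq2's size factors (4 higher, 11 lower, 9 shared), 7 with totals alone (all higher, 4 shared), 11 with the Wald test (1 higher, 10 lower, 6 shared), 2 at 0.01 and 5 to 8 without single libraries, the 5 being without Mbnl2KO replicate 1. The cause of these changes in number was not tested.

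No miRNA that passed changed direction under an alternative that gave it a value. Of the miRNAs that did not pass, those most used above were followed through each fit: leaving out a library turned 4 of them, and this was not counted for the others. Leaving out each in turn, the log2 fold change of miR-499-5p lay between -0.46 (without Mbnl1KO replicate 2) and 2.36. Such fits also gave a log2 fold change of miR-140-5p between -0.016 and 0.54, and put the log2 fold change of miR-451a between -0.010 and 0.49, and the log2 fold change of miR-154-5p between -0.51 and 0.18. Of all 226 miRNAs that did not pass, 51 of 225 changed sign with totals alone, 8 of 224 with DESeq2's Wald test and 0 of 226 with the replicate block. Among those followed, with totals alone the log2 fold change of miR-329-3p was 0.025 and the log2 fold change of let-7f-5p was 0.011. Depth limited the least abundant members, with groups at a few reads per library.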
